A study of Homo sapiens with 9 samples.

Results

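Tight junctions seal the space between neighbouring epithelial cells and set which ions and solutes pass between them. In the kidney tubule, claudins form the paracellular barrier or pore, occludin and tricellulin belong to the MARVEL family of membrane proteins, junctional adhesion molecules add immunoglobulin-type adhesion, and zonula occludens proteins and cingulin tie these to the actin cytoskeleton. The mix of claudins a tubule segment makes is known to set how leaky that segment is.

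Described here are 9 human genes of this structure out of 62703 listed genes: the claudins CLDN1, CLDN4, CLDN7 and CLDN12, occludin (OCLN), tricellulin (MARVELD2), junctional adhesion molecule A (F11R), zonula occludens 1 (TJP1) and cingulin (CGN). They were picked by symbol with earlier results of these libraries known, and which values guided the choice is not recorded. Their differences in all 3 comparisons are therefore given as a description without p-values. All 9 were among the 18267 genes with enough counts to be tested.

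The series asks how MYDGF, a secreted growth factor, acts in injured kidney tubule cells. RNA was sequenced in 9 libraries of HK-2, a papillomavirus-transformed line from human renal cortex, in 3 groups of 3. The MYDGF group (libraries 1, 3 and 4) is labelled as overexpression of MYDGF; it received an adenovirus, vector GV314, carrying MYDGF, and aristolochic acid, a plant toxin that injures tubules, at 5 µg/ml for 48 h. The aristolochic acid group (libraries 1, 4 and 6) has the genotype WT in the labels and received the same dose for the same time. Untreated cells (libraries 1, 2 and 3), also WT, were given no aristolochic acid. The protocols give 5% serum, 12 h of serum starvation and 1.3 µg of RNA per library without distinguishing the groups. No control vector is named for either WT group and no vehicle for the untreated cells, so MYDGF cannot be told apart from the virus, nor aristolochic acid from its solvent. The treatment labels of 4 libraries (untreated 2 and 3, MYDGF 3 and 4) read HK-3 or HK-4 although their cell line entry reads HK-2. Whether the 3 libraries of each group stem from separate cultures is not stated, so p-values below reflect how far these libraries lie apart, possibly for technical reasons alone.

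Total counts per library ran from 10876572 to 14254786. MYDGF, the gene carried by the virus, had 663, 510 and 599 CPM in the MYDGF group, against 105, 74.2 and 90.4 CPM with aristolochic acid alone and 124.8, 131 and 123 CPM in untreated cells. CPM are counts per 1000000, scaled between libraries with TMM. Against aristolochic acid alone MYDGF was 2.72 higher on the log2 scale (SE 0.136, edgeR adjusted p = 2.74e-05). Of 8 tubule epithelium markers 5 were tested. KRT19 was called higher and KRT8 and KRT18 lower in the MYDGF group than with aristolochic acid. Among all tested genes 14.7% were called higher and 14.7% lower there. With aristolochic acid 4 were called higher and 0 lower than in untreated cells, against 29.7% and 29.3% of all tested genes. In the MYDGF group all 5 were called higher than in untreated cells, against 26.8% of all tested genes, with 24.3% lower. KRT8 averaged 730.3 CPM in the MYDGF group, 953 CPM with aristolochic acid and 579.97 CPM in untreated cells, KRT19 averaged 62.8, 50.5 and 42.3 CPM in the same order, and VIM, vimentin, averaged 843, 635 and 575 CPM. Of 8 markers of the differentiated proximal tubule, 5 stayed under 1 CPM in all 9 libraries, among them the endocytic receptor LRP2, the phosphate carrier SLC34A1 and the pore-forming claudin CLDN2. Together the 8 summed to 7.99 to 9.60 CPM in the MYDGF group, 8.92 to 13.2 CPM with aristolochic acid and 5.60 to 7.22 CPM in untreated cells. The receptor CUBN rose with aristolochic acid over untreated (log2 fold change 1.56, SE 0.252, edgeR adjusted p = 0.000591) and in the MYDGF group over untreated (1.03, SE 0.254, adjusted p = 0.00799), and the water channel AQP1 rose with aristolochic acid over untreated (1.35, SE 0.455, adjusted p = 0.0279). The remaining tested marker of these 8, CLDN10, fell with aristolochic acid against untreated (-1.65, SE 0.275, adjusted p = 0.000715), and its levels are given below. The tubule transcription factor PAX2 and the cadherin CDH2 were also under 1 CPM in all 9. Of 7 endothelial markers, VWF, KDR and CLDN5 were under 1 CPM in every library, and the 7 together summed to 8.90 to 9.57 CPM in the MYDGF group, 13.9 to 23.3 CPM with aristolochic acid and 2.43 to 3.71 CPM in untreated cells. Of 4 tested, 3 were called higher and 0 lower with aristolochic acid than in untreated cells, against 29.7% and 29.3% of all genes. They were ESAM, described below, PECAM1 (log2 fold change 3.74, SE 0.391, edgeR adjusted p = 5.32e-05) and TEK (2.77, SE 0.462, adjusted p = 0.000716). PECAM1 averaged 2.12, 7.92 and 0.584 CPM in the MYDGF, aristolochic acid and untreated groups. Of 10 distal nephron and collecting duct markers, where CLDN4 and CLDN7 are typically found, 6 were under 1 CPM in every library, with UMOD and CLDN8 at 0. Together the 10 summed to 16.7 to 18.8 CPM in the MYDGF group, 19.9 to 24.1 CPM with aristolochic acid and 16.2 to 19.0 CPM in untreated cells. AQP3, a water channel, made up most of this sum, at 11.9 CPM in the MYDGF group, 12.1 CPM with aristolochic acid and 15.7 CPM in untreated cells. The salt carrier SLC12A3 averaged 3.01, 5.72 and 0.159 CPM in the same order and rose in both groups over untreated cells (4.16, SE 0.453, edgeR adjusted p = 9.68e-05 with MYDGF; 5.08, SE 0.433, adjusted p = 1.89e-05 with aristolochic acid). GATA3 averaged 1.95, 3.18 and 1.19 CPM and also rose in both (0.71, SE 0.247, adjusted p = 0.0376, and 1.41, SE 0.239, adjusted p = 0.000782). AQP3 fell in both (-0.40, SE 0.125, adjusted p = 0.0249, and -0.38, SE 0.126, adjusted p = 0.0268). The part of other cell types in the results below was not tested. Since these are bulk libraries, fewer cells that make a transcript and less of it per cell cannot be told apart.

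The promoter windows of 3 members are shown because these 3 genes differed by the most between the MYDGF group and untreated cells, CLDN4 downward and CLDN7 and CGN upward. Each is the RefSeq window of build GRCh38.p14 from 250 bases before to 50 bases after a transcription start, read along the gene's strand. Windows were found for 8 of the 9 members, 13 in all, out of 35116 windows searched. Where a gene had several windows, the one with the most matches to its marked letters is shown. In CLDN4 (chr7:73830746-73831045, plus strand) capitals mark TGANTCA, the letters of an AP-1 site, which is its own reverse complement. In CLDN7 (chr17:7262429-7262728, minus strand) capitals mark CAGGTG or its reverse CACCTG, an E-box of the kind that SNAI and ZEB factors bind. In CGN (chr1:151511137-151511436, plus strand) they mark GGGCGG or its reverse CCGCCC, a GC box; the first 2 of its matches overlap by 1 base.
CLDN4: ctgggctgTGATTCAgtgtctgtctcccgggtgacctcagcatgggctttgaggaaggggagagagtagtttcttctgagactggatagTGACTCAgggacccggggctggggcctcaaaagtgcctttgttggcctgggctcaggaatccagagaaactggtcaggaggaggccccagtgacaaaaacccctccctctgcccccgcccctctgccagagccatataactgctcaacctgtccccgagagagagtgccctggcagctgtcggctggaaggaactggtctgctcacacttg
CLDN7: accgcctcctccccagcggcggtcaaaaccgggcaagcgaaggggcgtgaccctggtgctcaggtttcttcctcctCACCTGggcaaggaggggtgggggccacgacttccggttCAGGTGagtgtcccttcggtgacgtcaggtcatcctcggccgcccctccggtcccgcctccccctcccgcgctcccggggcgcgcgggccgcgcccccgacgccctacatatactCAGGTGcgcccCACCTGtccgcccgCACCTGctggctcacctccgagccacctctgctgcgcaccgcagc
CGN: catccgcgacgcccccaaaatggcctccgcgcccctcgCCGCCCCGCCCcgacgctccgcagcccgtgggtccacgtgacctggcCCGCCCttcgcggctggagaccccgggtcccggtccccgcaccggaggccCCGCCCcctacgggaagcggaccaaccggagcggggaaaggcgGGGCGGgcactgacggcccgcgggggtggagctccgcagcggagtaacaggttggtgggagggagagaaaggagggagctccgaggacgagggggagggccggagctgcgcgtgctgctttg

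The CLDN4 window held 2 matches to TGANTCA, 242 and 161 bases before the start. Of all windows 7.71% held at least 1 such match and 0.515% at least 2, and the other 12 member windows held none. The CLDN7 window shown held 5 E-box matches between 174 bases before and 5 bases after the start. Of all windows 0.094% reached that number and 20.6% held at least 1. The CLDN7 window was picked as the one with the most matches, while these shares are of windows not picked so. Another CLDN7 window (chr17:7263164-7263463) held none. The CGN window held 5 GC boxes, reached by 5.14% of windows, where 45.0% held at least 1. Neither the TATA box letters TATAAA (11.5% of windows) nor the Grainyhead letters AACCGGTT (0.134%) were found in any member window, and CCAAT (34.6%) was found in windows of CLDN7, CLDN12, OCLN and MARVELD2. A match is a description of these letters only.

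CLDN4, a claudin that tightens the barrier to sodium and is typical of the distal nephron, showed the widest differences of the 9 genes (ENSG00000189143, chr7:73799542-73832690 in the table, plus strand). It had 2.53, 2.42 and 1.70 CPM in the MYDGF group, 31.9, 21.6 and 23.5 CPM with aristolochic acid, and 41.8, 42.4 and 42.7 CPM in untreated cells. The 3 groups did not overlap, and MYDGF libraries were low throughout. The level was 11.6-fold lower in the MYDGF group than with aristolochic acid (log2 fold change -3.53, SE 0.194, n = 3 per group) and 19.1-fold lower than in untreated cells (-4.26, SE 0.195). With aristolochic acid alone it was -0.72 (SE 0.158) relative to untreated cells. The 3 MYDGF libraries held 88 counts of the gene in all, against 928 with aristolochic acid and 1598 in untreated cells. The nearest gene of at least 10 CPM upstream on its strand, BUD23, lies 94.4 kb away and averaged 137, 112 and 81.3 CPM in the same order of groups.

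CLDN7, a claudin of distal tubule and collecting duct and a binding partner of EPCAM, was the claudin with the largest upward difference among the 4 (ENSG00000181885, chr17:7259903-7263983, minus strand). It had 3.60, 4.84 and 4.10 CPM in the MYDGF group, 2.11, 1.78 and 1.38 CPM with aristolochic acid, and 1.82, 1.01 and 1.74 CPM in untreated cells. All 3 MYDGF libraries lay above all 6 others, while the other 2 groups overlapped. The log2 fold change was 1.24 (SE 0.258) for the MYDGF group over aristolochic acid, 0.20 (SE 0.281) for aristolochic acid over untreated cells and 1.44 (SE 0.261) for the MYDGF group over untreated cells. The middle value was -0.03 without untreated library 2. The gene rests on few counts, 167 in the MYDGF libraries, 64 with aristolochic acid and 58 in untreated cells. Its end overlaps 38 bases of ELP5 on the opposite strand, and whether counting used strand is not given.

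CLDN1, a barrier claudin that in the kidney marks the parietal cells of Bowman's capsule, was the most abundant claudin (ENSG00000163347, chr3:190305707-190322446, minus strand). It had 292, 304 and 286 CPM in the MYDGF group, 311, 333 and 324 CPM with aristolochic acid, and 225, 227 and 244 CPM in untreated cells. The groups did not overlap in any pair, with aristolochic acid highest and untreated cells lowest. On the log2 scale it differed by -0.13 (SE 0.0559) between MYDGF and aristolochic acid, by 0.48 (SE 0.0560) between aristolochic acid and untreated cells, and by 0.34 (SE 0.0560) between MYDGF and untreated cells. CLDN1 accounted for 71.0 to 73.9% of the summed FPKM of all 23 listed claudins in the MYDGF libraries, 76.1 to 78.7% with aristolochic acid and 59.6 to 63.8% in untreated cells. FPKM are the authors' values per kilobase of gene length and per 1000000 counts.

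CLDN12, a claudin without the PDZ-binding tail of most others, varied more within groups than between them (ENSG00000157224, chr7:90383721-90513402, plus strand). It had 68.0, 64.0 and 19.7 CPM in the MYDGF group, 26.9, 75.3 and 23.8 CPM with aristolochic acid, and 58.2, 38.3 and 43.7 CPM in untreated cells. MYDGF library 4 was low, aristolochic acid library 4 was high, and all 3 groups overlapped. The log2 fold changes were 0.26 (SE 0.516), -0.15 (SE 0.517) and 0.11 (SE 0.515) for the MYDGF group over aristolochic acid, aristolochic acid over untreated and the MYDGF group over untreated. Leaving out 1 library was enough to move the first of these between -0.03 and 0.99 and the second between -0.88 and 0.15, and the third ran from -0.15 to 0.51. The libraries that turned a sign were MYDGF 1 and 3, aristolochic acid 1 and 6, and untreated 1 and 2. The gene model overlaps CDK14 over 46979 bases and GTPBP10 over 7733 bases on the same strand, so reads there may have been split.

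**Figure D1:**
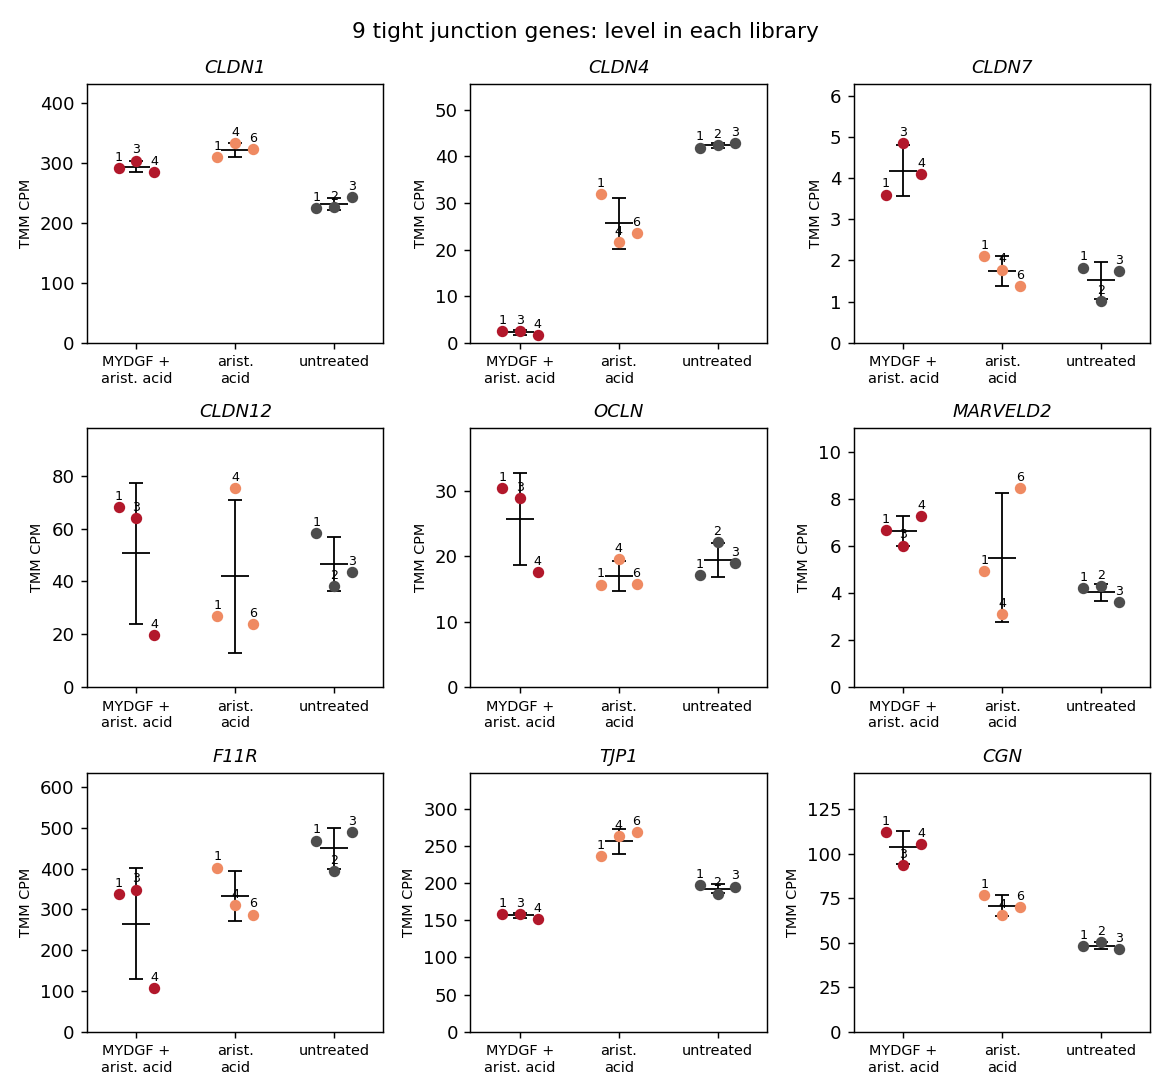
Level of each of the 9 genes in each library, as TMM-scaled CPM on linear axes from 0; numbers are library numbers, the dash is the group mean and the bars 1 SD (n = 3). CLDN4 lies between 1.70 and 2.53 CPM in the MYDGF libraries, below the other 2 groups, while 1 MYDGF library (4) stands far below its group in CLDN12 and F11R.

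Occludin, a MARVEL-domain protein that takes part in junction assembly and signalling, was highest in MYDGF libraries 1 and 3 (OCLN, ENSG00000197822, chr5:69492292-69558104, plus strand). It had 30.5, 28.96 and 17.7 CPM in the MYDGF group, 15.7, 19.6 and 15.7 CPM with aristolochic acid, and 17.2, 22.2 and 19.0 CPM in untreated cells. MYDGF library 4 lay within the range of both other groups, so every pair of groups overlapped. The log2 fold change was 0.59 (SE 0.205) for the MYDGF group over aristolochic acid, -0.19 (SE 0.207) for aristolochic acid over untreated and 0.40 (SE 0.204) for the MYDGF group over untreated. A partial copy of the gene, OCLNP1, averaged 1.52 ± 0.566, 1.03 ± 0.329 and 1.35 ± 0.352 CPM (SD, n = 3) in the same groups, and how the authors' counting split reads between the copies is not given.

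Tricellulin, the MARVEL protein that seals the corners where several cells meet, was expressed at a low level (MARVELD2, ENSG00000152939, chr5:69415065-69444330, plus strand). It had 6.66, 6.01 and 7.28 CPM in the MYDGF group, 4.94, 3.09 and 8.46 CPM with aristolochic acid, and 4.20, 4.28 and 3.63 CPM in untreated cells. The MYDGF libraries lay above all untreated ones, and the aristolochic acid libraries spread across both. The fit gave 0.72 (SE 0.306) for the MYDGF group over untreated, 0.29 (SE 0.301) for the MYDGF group over aristolochic acid and 0.44 (SE 0.311) for aristolochic acid over untreated. Without aristolochic acid library 6 the last 2 became 0.72 and 0.01, and without library 4 of that group they were -0.01 and 0.73. MARVELD2 begins 0.264 kb past the end of RAD17 on the same strand, which averaged 36.3, 35.0 and 38.1 CPM in the MYDGF, aristolochic acid and untreated groups. Elsewhere, 171 protein-coding genes with at most 3 untreated counts that begin within 10 kb past an active gene on the same strand summed to 143, 399 and 115 CPM in the MYDGF libraries. Their sum was 239, 542 and 423 CPM with aristolochic acid and 3.49, 4.28 and 5.22 CPM in untreated cells. The untreated sums are low because the genes were picked for few untreated counts. Silent genes far from active genes were not summed, so these sums do not single out signal from a gene upstream. The part of such signal in the MARVELD2 counts was not tested.

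Junctional adhesion molecule A, which holds apposed membranes together and recruits polarity proteins, ranged with CLDN1 among the most abundant of the 9 genes (F11R, ENSG00000158769, chr1:160995211-161021343, minus strand). It had 338, 349 and 108 CPM in the MYDGF group, 402, 310.0 and 287 CPM with aristolochic acid, and 469, 393 and 489 CPM in untreated cells. MYDGF library 4 held less than any other library, and the MYDGF group lay below the untreated range but overlapped the aristolochic acid range. The log2 fold change was -0.33 (SE 0.359) for the MYDGF group over aristolochic acid, -0.43 (SE 0.359) for aristolochic acid over untreated and -0.77 (SE 0.361) for the MYDGF group over untreated. Without MYDGF library 4 the first was 0.04, opposite in sign, and the last was -0.38. The other 2 MYDGF libraries still lay below every untreated library. The gene model overlaps ENSG00000270149 over 23387 bases on the same strand, a gene with at most 16 counts in a library. How reads there were assigned is not given.

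Zonula occludens 1, the scaffold that clusters claudins and links them to actin, differed in opposite directions in the first 2 comparisons (TJP1, ENSG00000104067, chr15:29699367-29968915, minus strand). It had 159, 159 and 152 CPM in the MYDGF group, 237, 263 and 268 CPM with aristolochic acid, and 197, 186 and 195 CPM in untreated cells. No pair of groups overlapped, and the MYDGF libraries were the lowest of the 9. The log2 fold change was -0.71 (SE 0.0628) for the MYDGF group over aristolochic acid, 0.41 (SE 0.0626) for aristolochic acid over untreated and -0.30 (SE 0.0627) for the MYDGF group over untreated. The first 2 of these share the aristolochic acid libraries.

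Cingulin, a plaque protein that binds zonula occludens proteins, actin and myosin, was highest in the MYDGF group and lowest in untreated cells (CGN, ENSG00000143375, chr1:151510510-151538692, plus strand). It had 112, 93.5 and 105 CPM in the MYDGF group, 76.9, 65.4 and 70.2 CPM with aristolochic acid, and 47.9, 50.4 and 46.5 CPM in untreated cells. The groups formed 3 separate ranges. Each step was of like size, 0.55 (SE 0.0885) for the MYDGF group over aristolochic acid and 0.55 (SE 0.0895) for aristolochic acid over untreated, and the MYDGF group stood 1.10 (SE 0.0896) above untreated cells, or 2.14-fold. Its paralog CGNL1, paracingulin, had 8.73, 9.84 and 7.21 CPM in the MYDGF group, 12.1, 18.7 and 16.4 CPM with aristolochic acid, and 15.5, 16.1 and 14.6 CPM in untreated cells. CGNL1 fell in the MYDGF group against both other groups (log2 fold change -0.87, SE 0.175, edgeR adjusted p = 0.0067 over aristolochic acid, and -0.84, SE 0.175, adjusted p = 0.00328 over untreated). As a ratio of FPKM, CGN stood 14.1, 10.4 and 16.0 times above CGNL1 in the MYDGF libraries, 6.94, 3.83 and 4.70 times with aristolochic acid, and 3.38, 3.43 and 3.49 times in untreated cells.

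**Figure D2:**
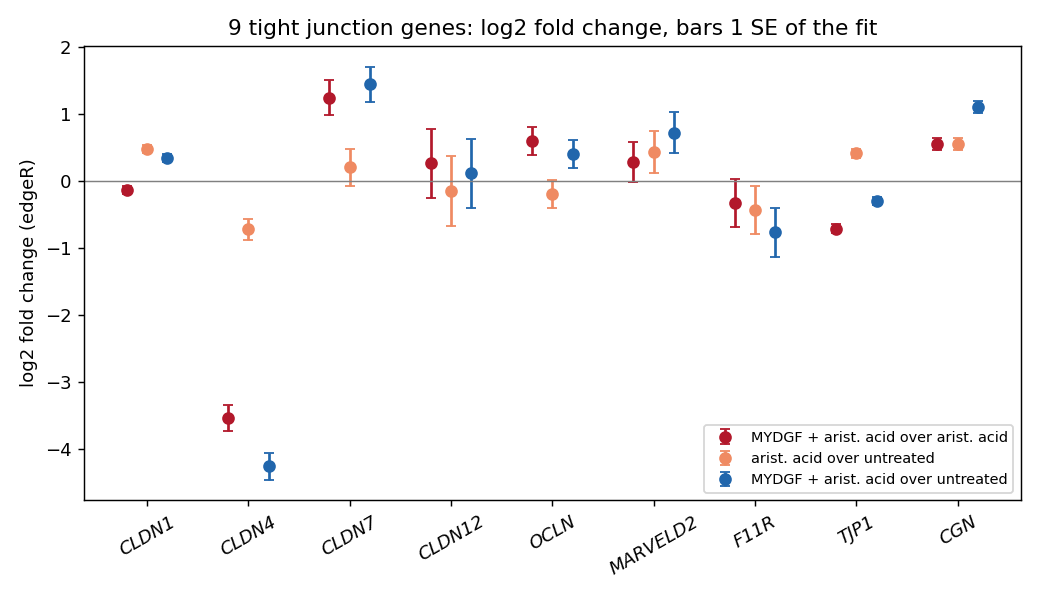
Log2 fold change of each of the 9 genes in the 3 comparisons from the edgeR fit to all 9 libraries, with bars of 1 SE. CLDN4 reaches -4.26 for the MYDGF group over untreated cells; the bars of CLDN12, with SE near 0.52, cross 0 in all 3 comparisons.

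In the fit across all genes with a Benjamini-Hochberg adjusted p under 0.05 as the threshold, 2 of the 9 (CLDN7 and CGN) were called higher and 2 (CLDN4 and TJP1) lower in the MYDGF group than with aristolochic acid. Of all tested genes 14.7% were called higher and 14.7% lower there, 29.4% in all. For aristolochic acid over untreated cells, CLDN1, TJP1 and CGN were called higher and CLDN4 lower, against 29.7% and 29.3% of all genes, 59.0% together. For the MYDGF group over untreated cells, CLDN1, CLDN7 and CGN were called higher and CLDN4 and TJP1 lower, against 26.8% and 24.3%, 51.1% together. CPM did not overlap between groups for 2 higher and 3 lower members in the first comparison, where 22.5% and 21.8% of all genes did not (44.3% together). In the second comparison 3 members were higher and 1 lower without overlap, against 32.9% and 33.0% of all genes (65.9%). In the third 4 were higher and 3 lower, against 32.8% and 31.1% (63.9%). The members were chosen with these values known, so the counts carry no weight of their own. The median log2 fold change of the 9 was 0.26, 0.20 and 0.34 in the 3 comparisons, beside 0.01, -0.01 and 0.02 over all tested genes.

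Per length, the order of the 9 genes differed between groups mainly through CLDN4. In the MYDGF group CLDN1 stood highest with 77.4 ± 2.58 FPKM (SD, n = 3), followed by F11R with 39.8 ± 20.6, CGN with 13.0 ± 1.21, TJP1 with 8.47 ± 0.249 and CLDN12 with 5.16 ± 2.75 FPKM. OCLN followed with 1.34 ± 0.369 FPKM, then CLDN7 with 0.638 ± 0.0935 and MARVELD2 with 0.545 ± 0.0510, which overlapped, and CLDN4 was last with 0.198 ± 0.0413 FPKM. With aristolochic acid the order was CLDN1 (85.5 ± 2.91 FPKM), F11R (50.4 ± 9.40), TJP1 (13.97 ± 0.880), CGN (8.96 ± 0.749), CLDN12 (4.32 ± 2.98) and CLDN4 (2.31 ± 0.504), the last 2 overlapping. Below them stood OCLN with 0.891 ± 0.120 FPKM, then MARVELD2 with 0.453 ± 0.223 and CLDN7 with 0.270 ± 0.0571 FPKM, which overlapped. In untreated cells F11R (67.1 ± 7.31 FPKM) and CLDN1 (60.6 ± 2.40) overlapped at the top, followed by TJP1 (10.35 ± 0.311). CGN (6.02 ± 0.269) and CLDN12 (4.73 ± 1.05 FPKM) came next and overlapped, and CLDN4 (3.763 ± 0.0250) came below them. OCLN, MARVELD2 and CLDN7 closed the order in untreated cells with 1.005 ± 0.133, 0.328 ± 0.0303 and 0.231 ± 0.0679 FPKM. CLDN1 exceeded CLDN4 by 340, 369 and 495 times in the MYDGF libraries, 28.6, 45.4 and 40.6 times with aristolochic acid and 15.8, 15.7 and 16.8 times in untreated cells. These ratios depend on the gene lengths behind the FPKM, 3793 bases for CLDN1 and 11139 for CLDN4.

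Of the 23 claudin genes listed, 11 had enough counts to be tested, 5 (CLDN8, CLDN17, CLDN18, CLDN24 and CLDN25) had no count in any library, and 5 reached 1 FPKM in every library. Those 5 were CLDN1, CLDN3, CLDN12, CLDN15 and CLDN23. CLDN15, a cation pore claudin of the gut, had 33.5, 27.2 and 33.4 CPM in the MYDGF group, 37.2, 38.6 and 38.4 CPM with aristolochic acid, and 13.4, 10.99 and 11.05 CPM in untreated cells. It rose with aristolochic acid over untreated (log2 fold change 1.69, SE 0.117, edgeR adjusted p = 8.07e-06) and in the MYDGF group over untreated (1.41, SE 0.117, adjusted p = 2.46e-05). CLDN3, a barrier claudin whose gene lies beside CLDN4, had 9.42, 11.2 and 9.05 CPM in the MYDGF group, 6.96, 5.41 and 6.44 CPM with aristolochic acid, and 15.9, 16.1 and 13.4 CPM in untreated cells. The groups did not overlap. CLDN3 rose in the MYDGF group over aristolochic acid (0.66, SE 0.147, adjusted p = 0.0108), where CLDN4 stood at -3.53. It fell against untreated cells with aristolochic acid (-1.27, SE 0.146, adjusted p = 8.92e-05) and in the MYDGF group (-0.62, SE 0.141, adjusted p = 0.00547).

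CLDN23 had 16.8, 22.6 and 17.6 CPM in the MYDGF group, 11.1, 8.89 and 8.74 CPM with aristolochic acid, and 23.5, 20.2 and 23.8 CPM in untreated cells. It rose in the MYDGF group over aristolochic acid (0.99, SE 0.153, edgeR adjusted p = 0.00255) and fell with aristolochic acid against untreated (-1.23, SE 0.153, adjusted p = 0.000135). CLDN10, whose isoforms form the ion pores of the proximal tubule and thick limb, was low, with 0.842, 1.249 and 1.27 CPM in the MYDGF group, 0.729, 0.618 and 0.552 CPM with aristolochic acid, and 2.30, 2.10 and 1.66 CPM in untreated cells. CLDN10 fell with aristolochic acid against untreated (-1.65, SE 0.275, adjusted p = 0.000715). Its fall in the MYDGF group against untreated (-0.84, SE 0.251, adjusted p = 0.0197) was not called by DESeq2, nor without MYDGF library 1 or untreated library 1 or 2. Over the 7 claudins tested outside the members, 2 rose and 0 fell in the MYDGF group over aristolochic acid, 1 rose and 3 fell with aristolochic acid over untreated, and 1 rose and 2 fell in the MYDGF group over untreated. That is 28.6%, 57.1% and 42.9% called, beside 29.4%, 59.0% and 51.1% of all tested genes.

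**Figure D3:**
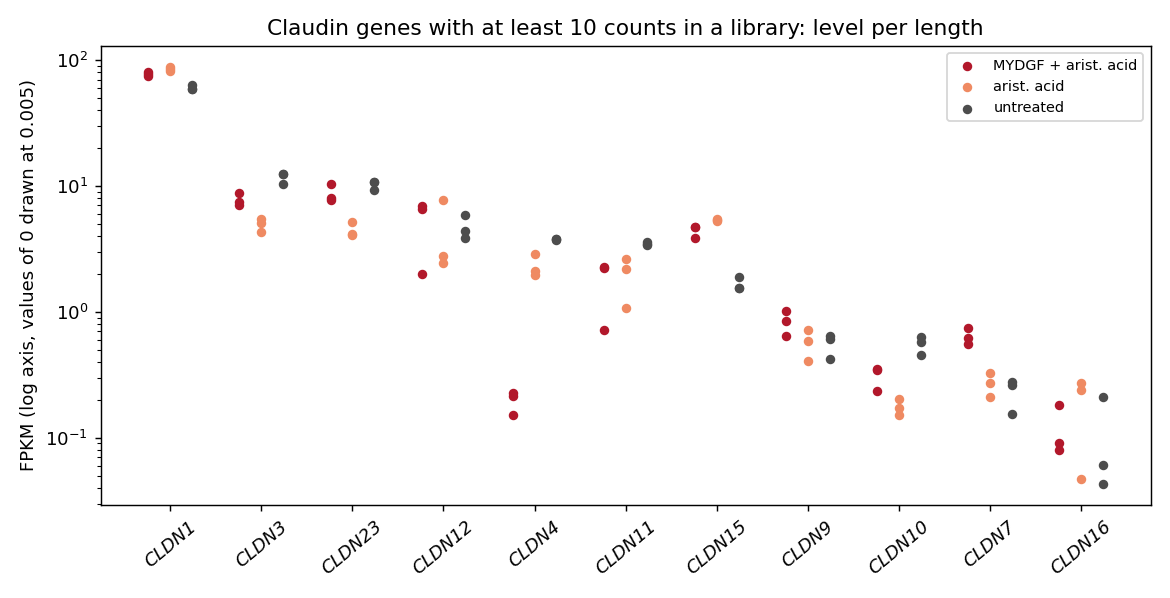
FPKM, as deposited, of the 11 claudin genes that reached 10 counts in a library, on a log axis, 1 point per library. CLDN1 lies above all others at 59.1 to 88.4 FPKM in every library, and CLDN4 separates the MYDGF libraries (0.151 to 0.228 FPKM) from the other 6 (1.95 to 3.78 FPKM).

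Membrane partners of the claudins changed in both directions. The immunoglobulin-type adhesion molecule ESAM had 5.28, 5.00 and 4.52 CPM in the MYDGF group, 5.91, 9.43 and 8.46 CPM with aristolochic acid, and 1.66, 1.09 and 2.04 CPM in untreated cells. It rose with aristolochic acid over untreated (log2 fold change 2.30, SE 0.254, edgeR adjusted p = 7.33e-05) and in the MYDGF group over untreated (1.61, SE 0.258, adjusted p = 0.000812). ESAM is also an endothelial marker, and the part of other endothelial genes, whose sums are given above, was not tested. EPCAM, which stabilises CLDN7 at the membrane, had 12.9, 14.4 and 13.1 CPM in the MYDGF group, 13.8, 13.6 and 10.6 CPM with aristolochic acid, and 7.69, 6.80 and 8.10 CPM in untreated cells. EPCAM rose in both groups over untreated cells (0.84, SE 0.137, adjusted p = 0.000909 for MYDGF; 0.75, SE 0.137, adjusted p = 0.0012 for aristolochic acid), and the MYDGF group differed from aristolochic acid by 0.08 (SE 0.133, adjusted p = 0.67). JAM3, junctional adhesion molecule C, fell in the MYDGF group against aristolochic acid (-0.95, SE 0.182, adjusted p = 0.00576) and against untreated (-1.42, SE 0.181, adjusted p = 0.000225). Of 8 tested genes of this list, 1 rose and 2 fell in the MYDGF group over aristolochic acid. With aristolochic acid over untreated 3 rose and 4 fell, and in the MYDGF group over untreated 3 rose and 1 fell. Among all tested genes 29.4%, 59.0% and 51.1% were called in these comparisons in turn. The called share of this list lay above these in the first and second comparison and slightly below in the third. The 1 rise in the first comparison was CXADR, the coxsackie and adenovirus receptor (0.33, SE 0.0540, adjusted p = 0.00316). CXADR had 210, 214 and 202 CPM in the MYDGF group and 163, 172 and 163 CPM with aristolochic acid. In untreated cells it had 226, 212 and 221 CPM. It fell with aristolochic acid against untreated (-0.40, SE 0.0541, adjusted p = 0.000206). The MYDGF group differed from untreated by -0.07 (SE 0.0539, adjusted p = 0.274), and these 2 groups overlapped. The fall of ESAM against aristolochic acid (-0.68, SE 0.227, adjusted p = 0.0487) was not called by DESeq2, nor without MYDGF library 1, 3 or 4, aristolochic acid library 4 or 6, or untreated library 1. The fall of ILDR2, an angulin of tricellular contacts, with aristolochic acid (-0.93, SE 0.361, adjusted p = 0.0493) was lost under 14 of 16 alternatives. MARVELD3, the remaining MARVEL protein of the junction, stayed at 0.155 to 1.34 CPM and was not tested.

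In the cytoplasmic plaque, TJP3, zonula occludens 3, stood lowest with aristolochic acid, where TJP1 stood highest. TJP3 had 5.82, 6.17 and 5.30 CPM in the MYDGF group, 3.89, 1.78 and 2.48 CPM with aristolochic acid, and 14.03, 11.9 and 15.8 CPM in untreated cells. It fell with aristolochic acid against untreated (log2 fold change -2.36, SE 0.248, edgeR adjusted p = 5.56e-05), rose in the MYDGF group over aristolochic acid (1.08, SE 0.253, adjusted p = 0.0127) and fell in the MYDGF group against untreated (-1.27, SE 0.229, adjusted p = 0.00156). ARHGEF2, an activator of RHOA that cingulin holds at the junction, rose in both groups over untreated, by 0.82 (SE 0.0604, adjusted p = 1.46e-05) with MYDGF and by 1.08 (SE 0.0606, adjusted p = 4.15e-06) with aristolochic acid. MICALL2, which helps return occludin to the junction, rose in the MYDGF group over aristolochic acid (0.58, SE 0.0873, adjusted p = 0.00228). The angiomotins AMOT, AMOTL1 and AMOTL2, scaffolds that also bind YAP, differed in direction in the MYDGF group against aristolochic acid. AMOT (-0.72, SE 0.0812, adjusted p = 0.000913) and AMOTL2 (-0.51, SE 0.115, adjusted p = 0.0108) fell there, and AMOTL1 rose (0.52, SE 0.0814, adjusted p = 0.00269). AMOTL1 also rose in the MYDGF group over untreated (0.61, SE 0.0814, adjusted p = 0.000305). MAGI2 fell with aristolochic acid against untreated (-1.68, SE 0.367, adjusted p = 0.00333) at under 2.5 CPM throughout; its fall in the MYDGF group (-1.13, SE 0.340, adjusted p = 0.0208) was not called by DESeq2, nor without MYDGF library 1 or 4 or untreated library 2 or 3. Of 20 plaque genes, 5 rose and 6 fell in the first comparison, 6 and 4 in the second and 6 and 6 in the third.

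Genes of the PAR, Crumbs and Scribble polarity complexes, which place the junction along the side of the cell, were all 13 measured. PALS1, the Crumbs scaffold, had 143, 138 and 156 CPM in the MYDGF group, 246, 302 and 270 CPM with aristolochic acid, and 158, 156 and 155 CPM in untreated cells. It fell in the MYDGF group against aristolochic acid (log2 fold change -0.90, SE 0.0811, edgeR adjusted p = 0.000406) and rose with aristolochic acid over untreated (0.80, SE 0.0810, adjusted p = 4.45e-05). PARD6G fell with aristolochic acid against untreated (-1.32, SE 0.131, adjusted p = 4.03e-05) and rose in the MYDGF group over aristolochic acid (0.65, SE 0.132, adjusted p = 0.00731). LLGL1, of the Scribble complex, fell with aristolochic acid against untreated (-1.03, SE 0.102, adjusted p = 3.97e-05); its rise in the MYDGF group over aristolochic acid (0.38, SE 0.102, adjusted p = 0.0221) was not called without MYDGF library 1 or 3 or aristolochic acid library 4 or 6. SCRIB rose in the MYDGF group over untreated (0.39, SE 0.101, adjusted p = 0.01), and PARD6B, which binds atypical protein kinase C, rose with aristolochic acid over untreated (0.62, SE 0.131, adjusted p = 0.00281). PARD6A fell in the MYDGF group against aristolochic acid (-0.93, SE 0.253, adjusted p = 0.0228) but was not called without MYDGF library 1 or 4 or aristolochic acid library 4. Its fall against untreated (-0.71, SE 0.255, adjusted p = 0.0418) and the rise of PARD3 in the same comparison (0.22, SE 0.0731, adjusted p = 0.0283) were both lost without MYDGF library 1 or 4 or untreated library 1 or 2, among others for PARD6A. Of the 13, 2 rose and 4 fell in the MYDGF group over aristolochic acid, 4 rose and 5 fell with aristolochic acid over untreated, and 2 rose and 5 fell in the MYDGF group over untreated. Called shares were 46.2%, 69.2% and 53.8%, beside 29.4%, 59.0% and 51.1% of all tested genes.

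Among kinases, proteases and their inhibitors that act on junction proteins, matriptase (ST14), a membrane protease that cleaves EPCAM, had 22.4, 12.2 and 18.5 CPM in the MYDGF group, 41.5, 53.9 and 54.4 CPM with aristolochic acid, and 3.96, 4.36 and 3.48 CPM in untreated cells. It rose with aristolochic acid over untreated (log2 fold change 3.66, SE 0.235, edgeR adjusted p = 5.93e-06), stood lower in the MYDGF group than with aristolochic acid (-1.50, SE 0.206, adjusted p = 0.00165) and rose in the MYDGF group over untreated (2.17, SE 0.232, adjusted p = 8.87e-05). Its inhibitor SPINT1 had 37.1, 44.5 and 34.6 CPM in the MYDGF group, 21.1, 19.0 and 27.9 CPM with aristolochic acid, and 33.2, 39.3 and 49.3 CPM in untreated cells. SPINT1 rose in the MYDGF group over aristolochic acid (0.78, SE 0.184, adjusted p = 0.0135) and fell with aristolochic acid against untreated (-0.85, SE 0.184, adjusted p = 0.00324). Per length, ST14 stood at 0.836, 0.379 and 0.743 times SPINT1 in the MYDGF libraries, 2.74, 3.93 and 2.70 times with aristolochic acid, and 0.165, 0.154 and 0.0978 times in untreated cells. The other inhibitor, SPINT2, stood at 163 to 238 CPM in all 9 libraries and was called in no comparison. WNK4, a kinase that phosphorylates claudins and sets chloride permeability, rose in both groups over untreated, by 2.24 (SE 0.175, adjusted p = 1.92e-05) with MYDGF and 3.02 (SE 0.176, adjusted p = 4.6e-06) with aristolochic acid. MYLK, myosin light chain kinase, which opens the junction by contracting the actin ring, fell in both, by 0.80 (SE 0.118, adjusted p = 0.000505) and 0.83 (SE 0.118, adjusted p = 0.000278). WNK4 stood lower in the MYDGF group than with aristolochic acid (-0.78, SE 0.155, adjusted p = 0.00666). The phosphatase PTPN2 fell in the MYDGF group against untreated (-0.41, SE 0.0668, adjusted p = 0.000895). The kinase SRC rose in the MYDGF group over aristolochic acid (0.29, SE 0.0832, adjusted p = 0.0294) but was not called without MYDGF library 1, 3 or 4 or aristolochic acid library 4. Of 13 such genes tested, 2 rose and 3 fell, 5 rose and 3 fell, and 5 rose and 3 fell in the 3 comparisons in turn. That is 38.5%, 61.5% and 61.5% called, beside 29.4%, 59.0% and 51.1% of all tested genes.

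Transcription factors known to act on junction genes were mostly low. OVOL2, a repressor of mesenchymal programmes, had 1.46, 2.11 and 1.63 CPM in the MYDGF group, 0.972, 0.464 and 0.368 CPM with aristolochic acid, and 0.475, 0.503 and 0.530 CPM in untreated cells. It rose in the MYDGF group over untreated (log2 fold change 1.76, SE 0.359, edgeR adjusted p = 0.00304) and over aristolochic acid (1.496, SE 0.351, adjusted p = 0.0129), the last not called without MYDGF library 3 or aristolochic acid library 4. ELF3, an epithelial ETS factor, had 57.3, 62.4 and 60.6 CPM in the MYDGF group, 95.9, 85.3 and 93.2 CPM with aristolochic acid, and 115, 109 and 118 CPM in untreated cells, and it fell in all 3 comparisons, by 0.61, 0.32 and 0.92 (adjusted p = 0.00094, 0.00332 and 1.72e-05). SNAI2, which binds E-boxes in junction promoters, rose with aristolochic acid over untreated at 1.29 to 2.63 CPM against 0.317 to 0.839 CPM (1.72, SE 0.380, adjusted p = 0.0036). Its rise in the MYDGF group over untreated (1.19, SE 0.391, adjusted p = 0.0296) was not called by DESeq2, nor without MYDGF library 1 or 4 or untreated library 1 or 3. SNAI1 rose in the MYDGF group over untreated (0.82, SE 0.142, adjusted p = 0.00124) and with aristolochic acid over untreated (0.51, SE 0.143, adjusted p = 0.0117). ZEB1 stood at 29.9 to 63.7 CPM and was called in no comparison, and the rise of ZEB2 with aristolochic acid over untreated (0.61, SE 0.237, adjusted p = 0.0488) was lost under 9 of 16 alternatives. OVOL1 stayed at or under 0.541 CPM and was not tested. GRHL2, a Grainyhead factor that activates claudin genes in mouse epithelia, had a count in 1 library only, MYDGF 4, at 0.0707 CPM. The other Grainyhead factor listed, GRHL1, averaged 11.6 CPM in the MYDGF group, 12.3 CPM with aristolochic acid and 8.17 CPM in untreated cells. GRHL1 rose with aristolochic acid over untreated (0.59, SE 0.143, adjusted p = 0.00568). Its rise in the MYDGF group over untreated (0.51, SE 0.143, adjusted p = 0.0155) was not called without untreated library 2. Of 8 tested, 1 rose and 1 fell in the first comparison, 5 rose and 1 fell in the second and 5 rose and 1 fell in the third. Called shares were 25.0%, 75.0% and 75.0%, beside 29.4%, 59.0% and 51.1% of all tested genes.

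At the adherens junction, which lies beneath the tight junction, E-cadherin (CDH1) had 70.5, 76.2 and 71.6 CPM in the MYDGF group, 52.8, 40.5 and 47.0 CPM with aristolochic acid, and 96.9, 106 and 105 CPM in untreated cells. The groups did not overlap. It rose in the MYDGF group over aristolochic acid (log2 fold change 0.64, SE 0.0966, edgeR adjusted p = 0.00234), fell with aristolochic acid against untreated (-1.13, SE 0.0969, adjusted p = 1.94e-05) and fell in the MYDGF group against untreated (-0.49, SE 0.0953, adjusted p = 0.00232). Plakoglobin (JUP) fell against untreated in both groups, by 1.30 (SE 0.104, adjusted p = 2.08e-05) with MYDGF and 1.03 (SE 0.103, adjusted p = 4.19e-05) with aristolochic acid. NECTIN2 rose in the MYDGF group over aristolochic acid (0.40, SE 0.0679, adjusted p = 0.00346) and NECTIN4 fell (-2.61, SE 0.342, adjusted p = 0.00143). NECTIN4 had 96 counts in the MYDGF group and 531 with aristolochic acid against 2 in untreated cells, CPM ratios of 45.3 (95% interval 12.2 to 379.0) and 277 (76.4 to 2290), which cover counting error only. Of 11 genes tested, 2 rose and 1 fell in the first comparison, 1 rose and 8 fell in the second and 1 rose and 5 fell in the third. The called shares were 27.3%, 81.8% and 54.5%, beside 29.4%, 59.0% and 51.1% of all tested genes, and the median log2 fold changes 0.15, -0.49 and -0.28, beside 0.01, -0.01 and 0.02.

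**Figure D4:**
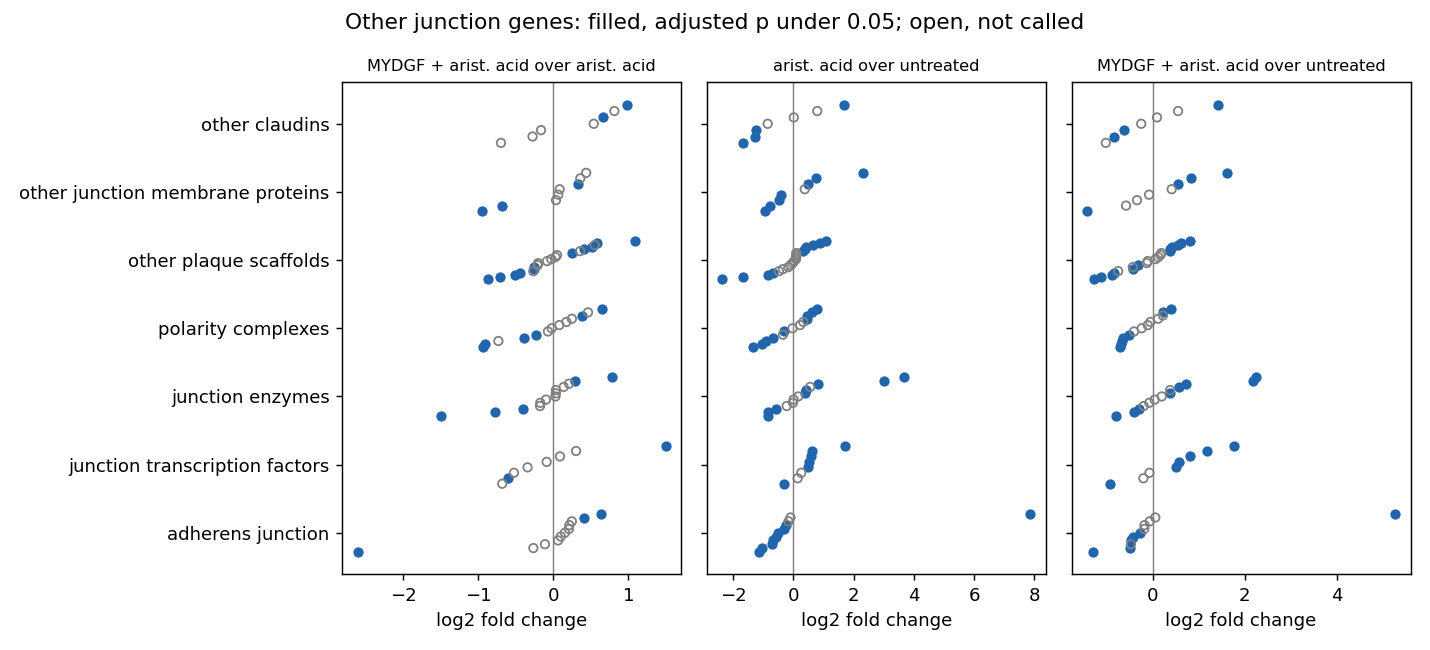
Log2 fold change of each tested gene of 7 lists of other junction genes in the 3 comparisons; filled points have an edgeR adjusted p under 0.05 and open points do not, and points are spread vertically only to separate them. Calls fall on both sides of 0 in most lists; ST14 and WNK4 lead the junction enzymes at 3.66 and 3.02 for aristolochic acid over untreated, and the point near 7.87 is NECTIN4, whose fitted value rests on 2 untreated counts.

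Pooled over the 6 lists other than the adherens junction, 69 of 91 genes were tested. In the MYDGF group over aristolochic acid 13 rose and 16 fell (42.0% called, beside 29.4% of all tested genes), with a median log2 fold change of 0.03. Without MYDGF library 3 the same count was 8 and 10, and without MYDGF library 4 it was 10 for the genes that fell. With aristolochic acid over untreated 24 rose and 20 fell (63.8%, beside 59.0%; median 0.09), and in the MYDGF group over untreated 22 rose and 18 fell (58.0%, beside 51.1%; median -0.05). These lists were chosen with earlier results of the libraries known, and no list was tested as a set.

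The members differed in how far libraries of a group lay apart, a pattern singled out after the values were seen. Of 10668 genes averaging at least 10 CPM, the highest library of a group was at least 3 times the lowest for 1.11% in the MYDGF group, 1.26% with aristolochic acid and 1.11% in untreated cells. CLDN12 was among them in the MYDGF group (3.45 times) and with aristolochic acid (3.16 times), and F11R in the MYDGF group (3.24 times). In untreated cells the same ratios were 1.52 for CLDN12 and 1.24 for F11R. By contrast, TJP1 and CLDN1 kept within 1.05 and 1.07 times in the MYDGF group, where the median gene was at 1.14. MYDGF library 4 was under 1/2 of both others in its group for 48 genes, CLDN12 and F11R among them, a number between the 43 and 55 of the other 2 MYDGF libraries. CLDN11, a claudin outside the 9, was low in MYDGF library 3 (5.54 CPM against 17.1 and 17.8) and aristolochic acid library 4 (8.27 CPM against 16.9 and 20.3). The source of these single-library differences was not tested.

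**Figure D5:**
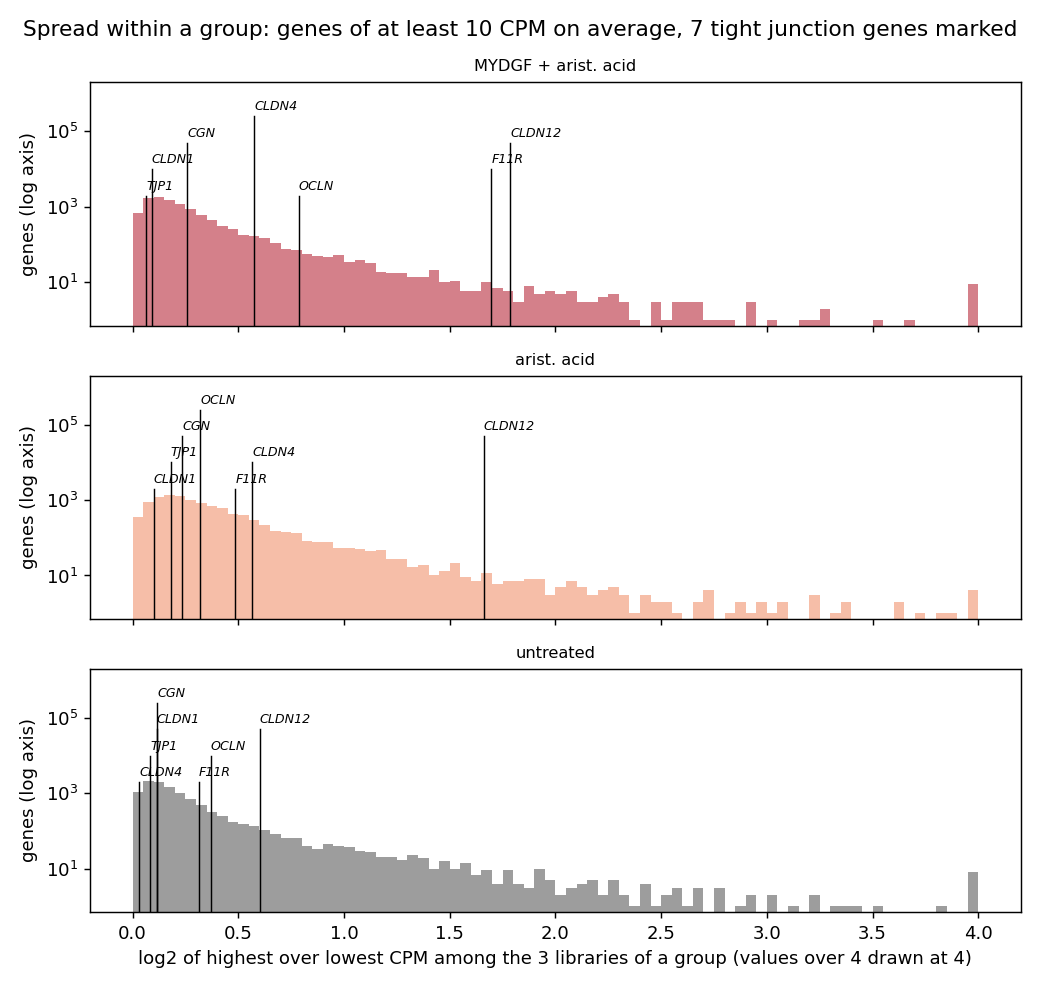
Histogram of the highest over the lowest CPM among the 3 libraries of each group, on a log2 scale, for 10668 genes averaging at least 10 CPM (gene numbers on a log axis), with 7 of the 9 tight junction genes marked; MARVELD2 and CLDN7 are under that level. CLDN12 and F11R lie in the far tail of the MYDGF group at 3.45 and 3.24 times, where the median gene is at 1.14.

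Among 13703 other tested protein-coding genes, those whose pattern over the 9 libraries was most like a member's were found by the root mean square difference in log2 CPM after centring each gene on its mean. CLDN1 was followed most closely by the kinase gene SIK3 (0.036, where CLDN1 itself varied by 0.205 around its mean) and then PKP4 (0.055). TJP1 was nearest to AMOT (0.059) and NT5C2 (0.060), and CGN to ZNF398 (0.052) and RECQL4 (0.073). For CLDN4 the nearest genes were GBP4 (0.710) and XAF1 (0.913), against a variation of 1.83 of its own. CLDN7 was nearest to SHC2 (0.193) and DYNLT2B (0.254), OCLN to ZNF407 (0.143) and C2orf81 (0.165), and MARVELD2 to CLIP3 (0.170) and TMEM38A (0.230). CLDN12 was nearest to VARS2 (0.261) and RNF11 (0.326), and F11R to SDR42E1 (0.189) and IKZF1 (0.290). GBP4 averaged 0.275 CPM in the MYDGF group, 1.41 CPM with aristolochic acid and 4.63 CPM in untreated cells.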

How the data were processed

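Per the file headers, the deposited table gives each gene's raw read count and its FPKM in each library. The FPKM deposited by the authors follow from those counts with 1 length for each of 37792 genes. The submitters' processing notes name edgeR, HISAT2, CASAVA 1.8 and SAMtools 1.3.1, and as build mm10, which is mouse. Yet the IDs are human, and 58279 of them were matched to GENCODE 29 with overlapping GRCh38 coordinates (100.0%), so GRCh38 is used. Counting tool, annotation and strand: not given in the sources used here.

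Counts of all 9 libraries were scaled with TMM, filtered by filterByExpr for the 3 groups, at least 10 counts and a total of 15, and fitted with 1 factor of 3 groups by edgeR 4.0.16 quasi-likelihood in R 4.3.3. Adjusted p-values are Benjamini-Hochberg values over 18267 genes with a threshold of 0.05. CPM use the TMM library sizes; the SE is that of the fit. The scripts were tested on simulated data. Every pair of libraries of a group differed by more than counting noise, so none was counted as a repeat deposit. Depth is given with the results.

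The members and lists were chosen with earlier results of these data known. Named genes are the members, the 2 largest called rises and falls per list and comparison, genes that act directly on a member, and the 2 genes nearest in pattern (log2 CPM with a prior count of 2). Alternatives were other scalings, no filter or at least 1 CPM in at least 3 libraries, DESeq2 1.42.0, only the 6 libraries compared, TPM for levels, each library left out, and the replicate number as a block. Some of the genes this rule names are not reported here.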

Additional observations from a re-analysis of the deposited data

How the results depend on the processing

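Of 432 log2 fold changes of the 9 genes under 16 alternatives, 423 stayed within the spread between replicates and 9 moved. Staying within that spread did not mean keeping the sign. CLDN12 took the opposite sign under 3, 4 and 3 of 16 alternatives in the 3 comparisons, with 0 counted as moved. For aristolochic acid over untreated with the replicate number as a block, OCLN was 0.19 in place of -0.19 and F11R 0.22 in place of -0.43. MARVELD2 was -0.01 in place of 0.44. For the other 80 genes, 3542 of 3833 values kept their side of the threshold, 245 lost the call (75 of them under the replicate block), 46 gained it, and 0 turned a called sign. Counts over all genes and over the junction genes stayed within 1.5 times under every other scaling, filter and tool tried, DESeq2 included. Single calls named above were nevertheless lost under DESeq2. In the MYDGF group over aristolochic acid, SRC and ESAM were also lost without the filter. With only the 6 libraries compared, SRC, ESAM and LLGL1 were lost there.

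No label ties the replicate numbers to a culture or day, so the libraries were not treated as paired. Deviations of same-numbered MYDGF and aristolochic acid libraries correlated at -0.16 and 0.01. Differently numbered libraries of these groups ran from -0.14 to 0.18. With so few pairs and deviations taken within groups of 3, this check cannot decide whether the numbers pair the samples. With the replicate number as a block the calls for the MYDGF group over aristolochic acid were 14 genes (8 higher and 6 lower) in place of 5379, and 0 of the junction genes (0 higher, 0 lower) in place of 29. For aristolochic acid over untreated they were 5062 (2652 higher, 2410 lower) in place of 10779, and 24 junction genes (12 higher, 12 lower) in place of 44. For the MYDGF group over untreated they were 5446 (2909 higher, 2537 lower) in place of 9329, and 24 junction genes, 9 of them lower, in place of 40. The block leaves fewer residual degrees of freedom, since each number takes a term.

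Leaving out 1 library gave 3504 to 6614 genes called for the MYDGF group over aristolochic acid, 1799 to 3152 of them higher and 1678 to 3462 lower, with the lowest total without MYDGF library 3. Junction genes called in that comparison ran from 18 to 32, with 8 to 16 higher and 10 to 16 lower. CLDN4 kept its direction under all 16 alternatives in the 3 comparisons, from -3.67 to -3.35, -0.90 to -0.41 and -4.35 to -4.08. Depth limits CLDN7 and MARVELD2, with under 300 counts in every group, and CLDN4 in the MYDGF group, with 88 counts.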

Other observations

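CLDN20 had 0 counts in the MYDGF group and in untreated cells, and 0.324, 0.464 and 0.460 CPM with aristolochic acid, at most 6 counts per library.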
